A study of Saccharomyces cerevisiae with 21 samples.

Results

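The 26S proteasome is the protease that degrades ubiquitin-tagged proteins, and 33 of its genes were followed here through the depletion of Sth1 and Rap1 in Saccharomyces cerevisiae. They were chosen by name from the 6692 genes counted and are 14 genes of the 20S core, 18 genes of the 19S regulatory particle and RPN4 (YDL020C), which encodes the transcription factor of the family. All 33 were among the 6254 genes that passed the filter on low counts. mRNA was sequenced from 21 libraries in 7 groups of 3 biological replicates, and a spike-in of Schizosaccharomyces pombe cells went into each. STH1-AID cells carried an auxin-inducible degron on Sth1, the ATPase of the chromatin remodeller RSC, RAP1-AID cells carried it on the general regulatory factor Rap1, and STH1-AID RAP1-AID cells carried both. Each of these strains received 500 µM IAA, an auxin, for 2 h, or as much DMSO, the solvent, alone. Wild-type (WT) cells were untreated and carried no degron and no osTIR1, the plant F-box protein that the degron strains expressed from the GPD1 promoter at LEU2. All strains were haploid MATa derivatives of BY4741, carried a FLAG tag on Rpb3 and grew in rich glucose medium at 30 °C. The degron acts on the protein, so mRNA counts of STH1 and RAP1 do not check the depletion. No cells without a degron were given IAA, so an effect of IAA itself cannot be told apart from that of the depletion. Likewise, an effect of the tag cannot be told apart from that of osTIR1 or of DMSO in any comparison with WT.

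Total S. cerevisiae counts ran from 20901972 to 29090954 per library and total S. pombe counts from 1144357 to 3486097, and the lowest raw count of any proteasome gene in any library was 1955. The strains are labelled as lacking MET15 (MET17 in the annotation). MET17 had 1 to 16 raw counts in the 6 STH1-AID libraries but 2373 to 7502 in all others, so the MET17 locus went against the label in every strain but STH1-AID. The part of this strain difference in comparisons between strains was not tested. IAA and DMSO libraries of a strain carried the same MET17 state.

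The 20S core is a barrel of 4 stacked rings. The 2 outer rings are built of 7 alpha subunits each and gate the entry of substrates, and the 2 inner rings of 7 beta subunits each hold the active sites, which sit on the products of PRE3, PUP1 and PRE2. The 19S particle caps the barrel. Its base contains 6 ATPases, Rpt1 to Rpt6, which unfold substrates, together with ubiquitin receptors and scaffolds such as Rpn1, Rpn2, Rpn10 and Rpn13, and its lid contains the deubiquitinase Rpn11. In budding yeast the subunits are made in fixed proportions, and their genes are switched on together by Rpn4, which binds a promoter element called PACE. Rpn4 is itself degraded by the proteasome within minutes, so that a fall in proteolysis raises Rpn4 and, through it, the subunit mRNAs. The auxin-inducible degron also works through this machinery, since osTIR1 marks the tagged protein for the proteasome.

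PACE was searched as the letters GGTGGCAAA on either strand, from 250 bases before to 50 after each start codon in the R64 genome from RefSeq, which is the build of the counts. The letters were present at 27 of the 33 genes (81.8%) and at 72 of 6001 promoters (1.2%). They lay on the strand of the gene in 19 cases and on the other strand in 8, between 75 and 174 bases before the start codon, with a median of 111. PRE5, PUP1, RPN8, RPN10 and RPN13 held the letters with 1 mismatch, which is the case at 7.57% of all promoters when exact matches are included. RPN4 held no match within 2 mismatches. The sequences below are those of the genes at both ends of the response to IAA, with PACE or its closest match in capitals and 12 bases on each side, written on the strand of the gene.
PRE8 (YML092C, alpha ring, chrXIII:86839-86871): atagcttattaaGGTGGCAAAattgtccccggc
RPT2 (YDL007W, ATPase, chrIV:437904-437936): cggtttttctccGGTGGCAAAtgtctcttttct
PUP1 (YOR157C, beta ring, chrXV:631889-631921): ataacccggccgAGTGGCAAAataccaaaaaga
RPT5 (YOR117W, ATPase, chrXV:544853-544885): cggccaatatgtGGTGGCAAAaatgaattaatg
PRE1 (YER012W, beta ring, chrV:177681-177713): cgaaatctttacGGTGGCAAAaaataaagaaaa
RPT6 (YGL048C, ATPase, chrVII:411350-411382): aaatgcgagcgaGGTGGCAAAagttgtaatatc
RPN10 (YHR200W, base, chrVIII:498966-498998): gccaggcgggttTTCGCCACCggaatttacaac

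In WT cells the 32 subunit genes were expressed at similar levels, and far above most genes. Their median was 346 CPM (counts scaled to the same library total) per kb of gene, against 36.8 for all genes tested. PRE1, which encodes a beta subunit, was the highest at 514 ± 47.1 (SD, n = 3) CPM per kb. PRE3 was the lowest at 174 ± 13.1, so the whole family of subunits spanned 2.95-fold. PRE3 is the only one with an intron, and fragments across splice junctions were not counted, so its level is understated. The next lowest, the lid gene RPN9, had 213 ± 16.2. RPN4 was transcribed at a much lower level of 57.4 ± 1.48 CPM per kb.

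Both scales of the counts were used to read the response to IAA. On the first, counts were scaled by the S. pombe spike-in, and the unit is the normalised count (raw count divided by the spike-in size factor). On the second, TMM (trimmed mean of M-values) scaling sets the typical gene to no change, and a change is one relative to other transcripts. CPM are divided by the library total alone, without TMM scaling, so a change in CPM can differ in size from the TMM change. On the spike-in scale, all genes together had a median log2 fold change on IAA of -0.84 for STH1-AID cells, -0.26 for RAP1-AID cells and -0.67 for the double-degron cells, and of between 0.01 and 0.07 under TMM. Total S. cerevisiae counts per S. pombe count were uneven between replicates. In replicates 1 to 3 of the double-degron cells they were 18.1, 10.5 and 8.28 with DMSO and 7.1, 9.2 and 8.01 with IAA. The drop there lay mostly in replicate 1. STH1-AID had 11.8, 12.3 and 22.2 against 8.14, 12 and 10.1. RAP1-AID had 16.4, 16 and 21.2 against 12.7, 12.4 and 12.9. Only in RAP1-AID did the groups not overlap. With the spike-in, fewer cells per sample and less mRNA per cell cannot be told apart. A gene was called at an edgeR quasi-likelihood p, adjusted by Benjamini-Hochberg over all genes, under 0.05 and a log2 fold change beyond 1 in either direction. Changes of any size at an adjusted p under 0.05 are given for TMM as well, where the median standard error (SE) was 0.09 to 0.10 rather than 0.31 to 0.32.

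Sth1 depletion was examined first. RPN4 mRNA rose, PRE1, RPT6 and RPN10 fell, and most other subunit mRNAs stayed within the error of their DMSO level per spike-in, above the typical transcript. RPN4 had 2220, 2627 and 4362 normalised counts in the 3 DMSO libraries and 4661, 8779 and 5719 with IAA. The groups did not overlap, and WT had 2061, 3252 and 2715. As a share of the library the separation was wider, with 93.0, 105 and 100.1 CPM against 280, 362 and 276 CPM. The log2 fold change was 1.06 ± 0.31 (SE; edgeR adjusted p = 0.0017) by spike-in and 1.94 ± 0.14 (adjusted p = 1.44e-10) under TMM. The spike-in value was just past the limit of 1 and dropped to 0.87, 0.96 and 0.76 without DMSO replicate 1, DMSO replicate 2 and IAA replicate 2, respectively, with adjusted p no higher than 0.0451 under any alternative.

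**Figure D1:**
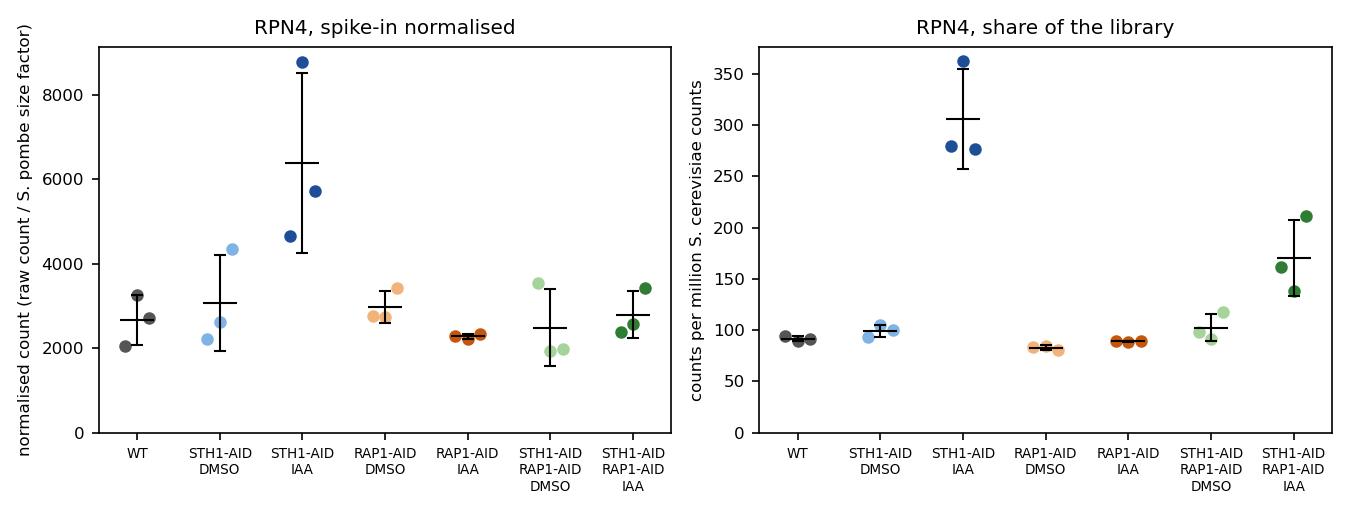
RPN4 in each library, as spike-in normalised counts (left) and as CPM of the S. cerevisiae counts (right). Points are the 3 replicates in order, the horizontal bar is the mean and the error bar the SD; the 3 STH1-AID IAA libraries lie above all others on both scales, and the STH1-AID RAP1-AID IAA libraries lie above their DMSO libraries on the CPM scale only.

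Over the 33 genes, 1 was called higher by spike-in (RPN4) where 4.69% of all genes were, and 3 were called lower where 42.7% were. The median log2 fold change was -0.05, which was 0.79 above that of all genes, and 29 of 33 lay above the all-gene median. At an adjusted p under 0.05 alone, 5 were lower by spike-in, where 55.4% of all genes were. Under TMM, 28 genes rose at an adjusted p under 0.05 (39.9% of all genes) and 3 fell (37.5% of all genes). At the limit of 1, 8 genes rose where 15.4% of all genes did. These were RPN4, the alpha subunit genes PRE8 and PRE10, the catalytic genes PUP1 and PRE2, the ATPase genes RPT2 and RPT3, and the lid gene RPN8. Leaving out any library of the comparison left 27 genes higher and 2 or 3 lower under TMM.

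In the alpha ring all 7 genes rose relative to other transcripts. PRE8 rose by a log2 of 1.17 ± 0.06 under TMM, with 211, 213 and 197 CPM in DMSO and 374, 371 and 379 CPM in IAA. PRE6 was the lowest of the ring at 0.44. In the beta ring 6 of 7 rose. Of the 3 genes for the catalytic subunits, PUP1 (trypsin-like site) changed by 1.14 ± 0.08, PRE2 (chymotrypsin-like site) by 1.08 ± 0.09 and PRE3 (caspase-like site) by 0.52 ± 0.08 under TMM. PUP1 stood at 295, 317 and 284.5 CPM in DMSO and at 517.5, 552 and 515 CPM in IAA. PRE2 stood at 282, 289 and 269 CPM in DMSO and at 471, 477 and 484 CPM in IAA. PRE3 went from 127, 130.1 and 114 CPM to 137, 142 and 147 CPM. As CPM all 3 genes were thus higher in every IAA library than in any DMSO library, PRE3 by the smallest margin. The share of all genes that separated in this way was not counted. On the spike-in scale the DMSO and IAA groups of each of them overlapped. The changes there were 0.26, 0.20 and -0.36, and none passed the test. Among the 6 ATPases 4 rose and 1 fell, among the 4 other base genes 3 rose and 1 fell, and in the lid 7 of 8 rose. RPT2 stood at 465, 487 and 461 CPM in DMSO and at 806, 888 and 852 CPM in IAA, a TMM change of 1.16 ± 0.08.

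A minority of subunits did not go with the rest. PRE1 fell from 6213, 6885 and 11130 normalised counts in DMSO to 2081, 3237 and 3086 in IAA, a log2 fold change of -1.53 ± 0.32 (edgeR adjusted p = 8.92e-06). RPT6 fell from 7952, 8803 and 14320 to 2715, 4196 and 3643, a change of -1.56 ± 0.33 (adjusted p = 6.69e-06). For both genes every IAA library was below every DMSO library, and both also fell under TMM, by 0.64 and 0.67. RPN10, a ubiquitin receptor of the base, fell from 5552, 5809 and 9272 to 2597, 3682 and 3564, a change of -1.07 ± 0.32 (adjusted p = 0.00193). Its value dropped to -0.79 without DMSO replicate 3, to -0.93 without IAA replicate 1 and to -0.18 under TMM, short of the limit of 1 each time. RPT5 and RPN7 followed with -0.88 and -0.72 by spike-in, both at an adjusted p under 0.05 but not past 1, and did not pass the test under TMM. RPT5 was called without DMSO replicate 1, at -1.05, and without IAA replicate 2, at -1.08. As CPM, PRE1, the highest subunit mRNA per length in WT, went from 264 ± 10.3 to 136 ± 12.1 (SD, n = 3), and RPT6 went from 338 ± 12.2 to 171 ± 6.70.

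**Figure D2:**
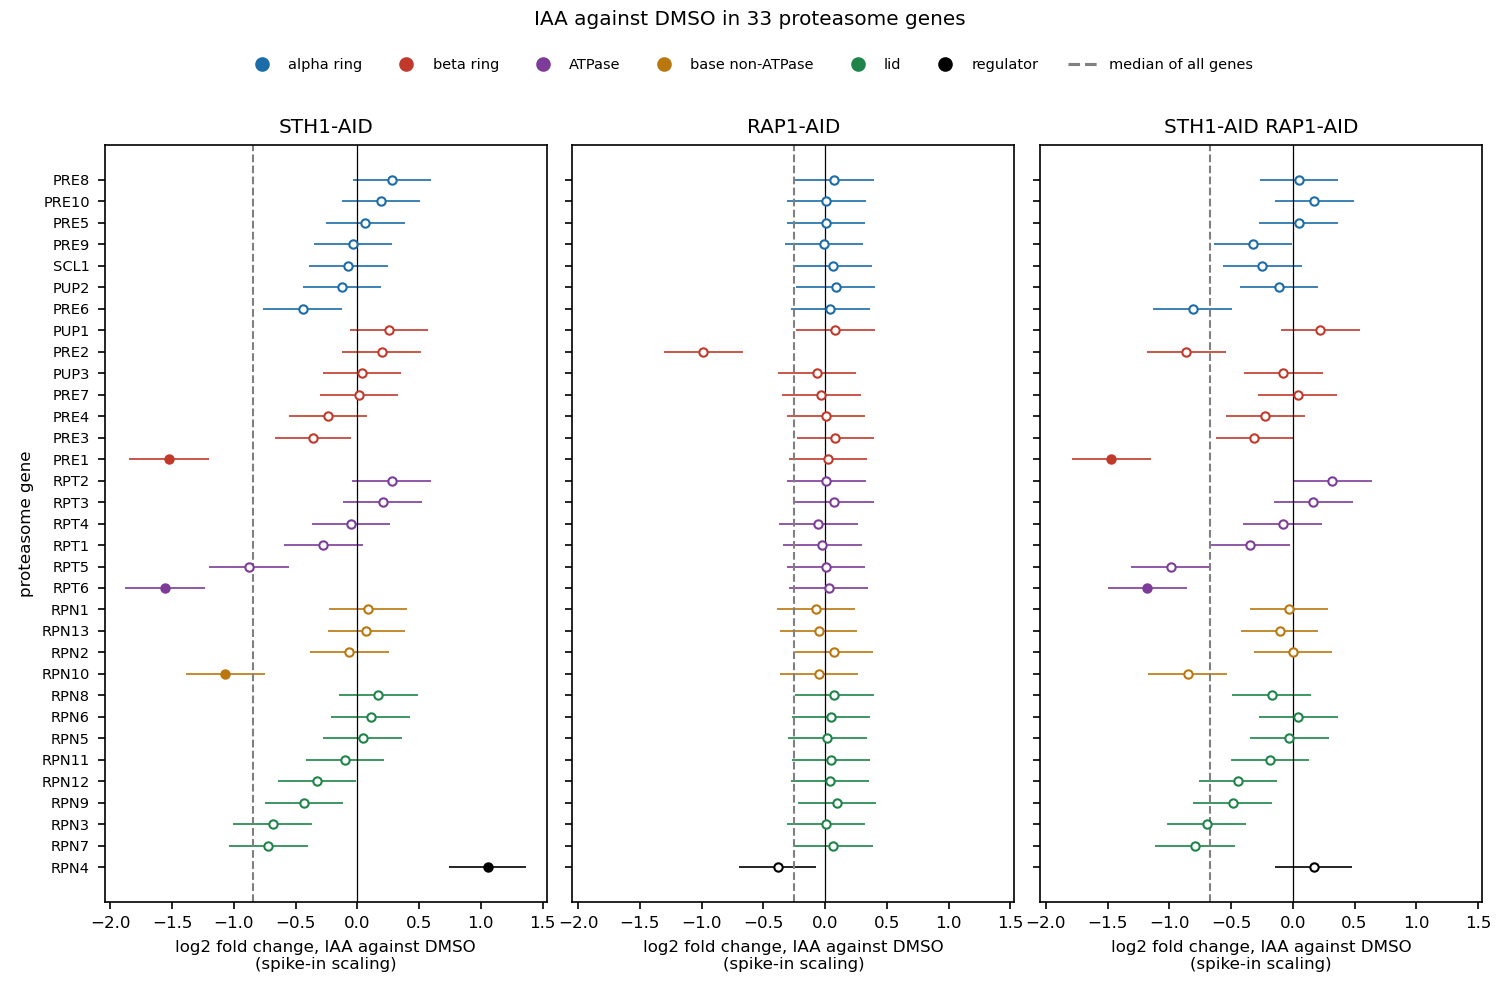
Log2 fold change of IAA against DMSO by spike-in for the 33 genes, grouped by their place in the proteasome, in the 3 degron strains. Points are estimates with SE bars, filled where called, and the dashed line is the median of all genes (-0.84, -0.26 and -0.67); 29, 31 and 25 of the 33 genes lie above that line, PRE1 and RPT6 lie at or below -1.18 in both strains with the Sth1 degron, and PRE2 lies at -0.99 in RAP1-AID.

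Of the 3 genes called lower, PRE1 and RPT6 hold the exact PACE letters, 133 and 75 bases before the start codon, and RPN10 holds them with 1 mismatch, as printed above. The 27 subunit genes with the exact letters had a median log2 fold change of -0.07 by spike-in and the 5 subunit genes without them 0.07. None of PRE1, RPT6 and RPN10 held any match to the 3 other sets of letters searched in the same windows. These sets were TTACCCG (the core of the Reb1 site), the A-track AAAAAAA and CGCG. These were present at 9, 10 and 7 of the 33 genes, and at 7.08%, 49.9% and 26.1% of all promoters. All letters were searched on both strands. A match is a description of the window and does not show binding. RPT6 and RPN10 are among the 21 genes of the 33 that stand head-to-head with the next gene upstream, and PRE1 is among the 12 in tandem with it.

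**Figure D3:**
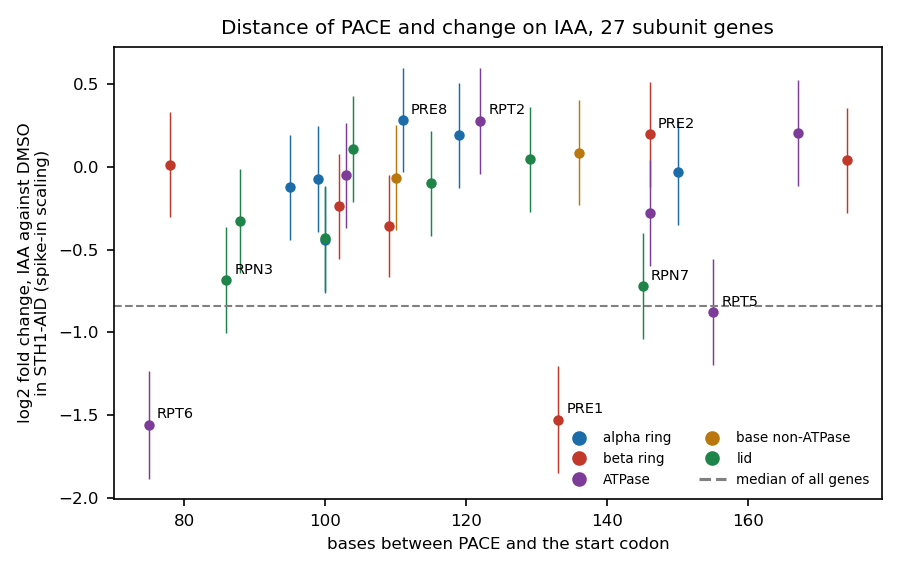
Number of bases between PACE and the start codon (x axis) and log2 fold change of IAA against DMSO in STH1-AID by spike-in (y axis, SE bars) for the 27 subunit genes with an exact PACE. The dashed line is the median of all genes (-0.84); RPT6 at 75 bases and PRE1 at 133 bases lie lowest.

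Rap1 depletion gave a different picture, in which nearly all subunits lay close together, slightly above other transcripts, and PRE2 stood apart. By spike-in no gene was called higher (0.4% of all genes) or lower (4.09% of all genes). At an adjusted p under 0.05 alone PRE2 was the only one lower, as were 4.38% of all genes. At an unadjusted p under 0.05 PRE2 was again the only one of the 33, against 532 of 6254 genes in either direction. Apart from PRE2 and RPN4 the log2 fold changes lay between -0.07 and 0.10, with a median over the 33 of 0.02, which was 0.27 above that of all genes. Under TMM, 31 genes rose at an adjusted p under 0.05 where 10.1% of all genes did, and 1 fell where 6.35% did. None was beyond a change of 1, as were 0.991% of all genes upward. The rises were small and even. RPN9 was highest at 0.43 ± 0.07, with 240, 232 and 248 CPM in DMSO and 348, 368 and 373 CPM in IAA, and PUP2 and PUP1 followed at 0.42 and 0.41. PUP1 had 274, 281 and 274 CPM in DMSO and 401, 416 and 419 CPM in IAA. PRE3 had 118, 119 and 116 CPM against 170, 176 and 180 CPM, a change of 0.41. PUP2, an alpha subunit gene, had 251, 253 and 260 CPM against 372, 382 and 390 CPM. As CPM the DMSO and IAA groups of these genes did not overlap, whereas by spike-in those of each gene did. How many of all genes separated as CPM was not counted. RPN1, a scaffold of the base and the lowest of those that rose, had 0.26 ± 0.08, with 695, 685 and 707 CPM in DMSO and 946, 925 and 926 CPM in IAA. RPN4 itself gave -0.06 ± 0.13 under TMM (adjusted p = 0.822), with 83.2, 84.7 and 80.2 CPM in DMSO and 89.5, 88.3 and 89.4 CPM in IAA. By spike-in RPN4 gave -0.38 ± 0.31 (edgeR adjusted p = 0.784). As CPM the groups of RPN4 did not overlap, with IAA the higher, although its TMM change was -0.06. Separation as CPM is therefore not by itself a rise relative to the typical transcript. Without single libraries, 25 to 29 genes rose under TMM.

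PRE2 had 238, 255 and 260 CPM in DMSO and 177, 176 and 183 CPM in IAA, so that the groups did not overlap. It fell by 0.65 on the log2 scale under TMM (SE 0.09, edgeR adjusted p = 1.93e-05). By spike-in the change was -0.99 ± 0.32 (adjusted p = 0.0449), short of the limit of 1, and the adjusted p ran from 1.37e-08 to 0.41 over the alternatives. PRE2 (chrXVI:732349-733212) stands head-to-head with RPL11A (chrXVI:731224-731748), a ribosomal protein gene, with 600 bases between their coding starts. RPL11A had 805, 825 and 841 CPM in DMSO and 376, 408 and 414 CPM in IAA. It fell by 1.54 on the log2 scale by spike-in (SE 0.33, edgeR adjusted p = 8.65e-05) and by 1.21 under TMM. The gap between them holds the letters CACCCATAC, part of the consensus bound by Rap1, chosen after this promoter was read. As the letters were chosen with this promoter known, the match of PRE2 was given in advance, and its share is no test. PRE2 was the only one of the 33 genes with these letters within 600 bases before its start codon, the length of the gap, against 0.9% of all genes. The stretch from there to PACE is shown because it puts both sets of letters, each in capitals, 80 bases apart upstream of a single subunit gene, and it runs from 5′ to 3′ towards PRE2.
PRE2 (YPR103W, beta ring, chrXVI:732085-732222): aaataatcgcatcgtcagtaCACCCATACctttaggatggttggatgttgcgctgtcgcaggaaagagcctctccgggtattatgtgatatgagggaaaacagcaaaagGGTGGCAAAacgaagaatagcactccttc

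**Figure D4:**
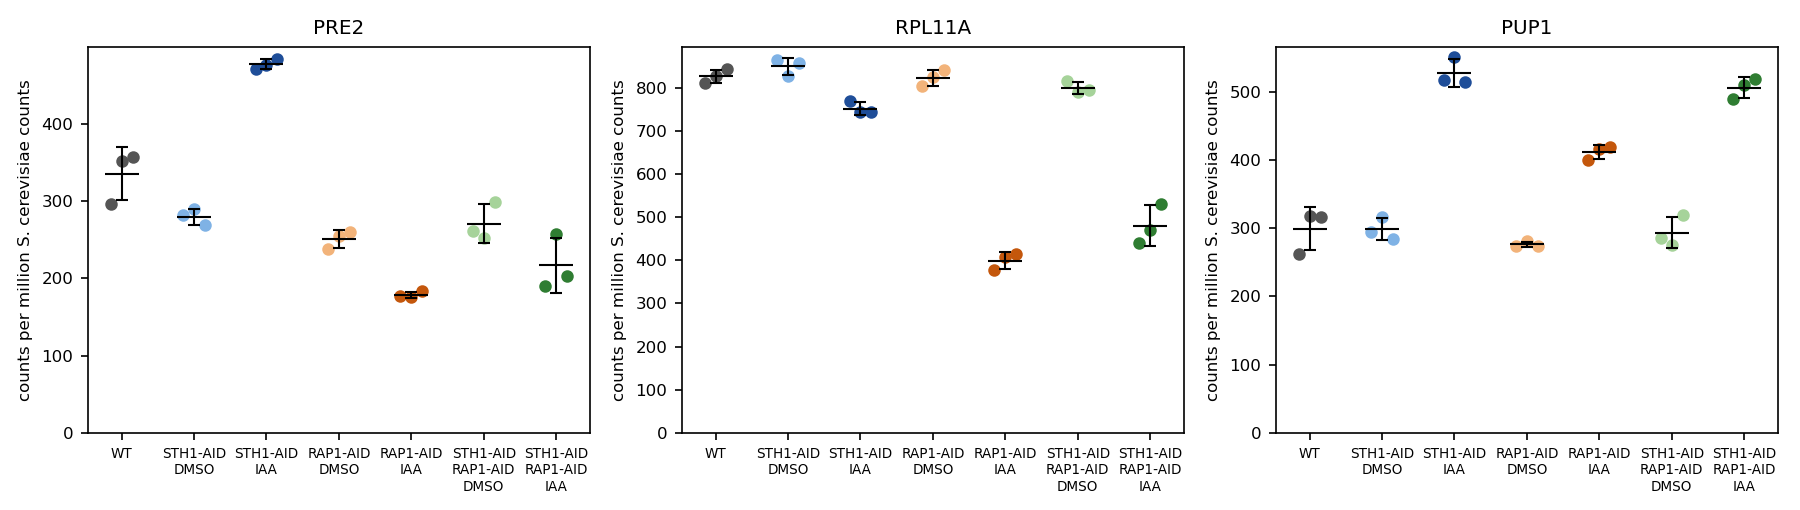
CPM of PRE2, of its neighbour RPL11A and, for comparison, of PUP1 in each library. Points are replicates, bars the mean and error bars the SD; in RAP1-AID with IAA, PRE2 lies at 176 to 183 CPM and RPL11A at 376 to 414 CPM, both below DMSO, whereas PUP1 lies at 401 to 419 CPM, above DMSO.

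In STH1-AID RAP1-AID cells PRE1 and RPT6 were again the lowest of the family and RPT2 and PUP1 the highest. By spike-in no gene was called higher (3.49% of all genes) and 2 were called lower (32.6% of all genes), namely PRE1 at -1.47 ± 0.32 (edgeR adjusted p = 3.98e-05) and RPT6 at -1.18 ± 0.32 (adjusted p = 9.72e-04). In this strain the replicate numbers paired the libraries, and when a replicate block was added and only these 6 libraries were fitted, the values were -1.41 (adjusted p = 0.0739) for PRE1 and -1.12 (adjusted p = 0.15) for RPT6. Neither call held there, where 8.23% of all genes were called lower and 1.7% higher. Without the block, RPT6 was at -0.80 when DMSO replicate 1 was left out, short of the limit of 1. At an adjusted p under 0.05 alone, without the block, 7 genes were lower, where 47.9% of all genes were. Of these, RPT5 at -0.99, PRE2 at -0.86 and RPN10 at -0.85 went past 1 without DMSO replicate 3, at -1.17, -1.03 and -1.02. The median log2 fold change was -0.17, which was 0.50 above that of all genes. Under TMM, 25 genes rose (35.4% of all genes) and 3 fell (36.4% of all genes). Beyond 1 only RPT2 rose, where 8.65% of all genes did. In the 6 libraries of this strain alone, 23 rose (26.3% of all genes) and 3 fell (33% of all genes) under TMM without the block, and 25 rose (36.9%) and 7 fell (41.3%) with it. PRE1 had 230, 214 and 248 CPM in DMSO and 111, 130 and 129 CPM in IAA, and RPT6 had 341, 322 and 370 CPM against 200, 235 and 241 CPM. Neither pair of groups overlapped, as in STH1-AID. RPT5 fell by 0.29 under TMM, from 350.2, 321 and 372 CPM to 246, 267 and 271 CPM.

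RPN4 rose in these cells under TMM. It had 98.1, 91.5 and 117 CPM in DMSO and 162, 139 and 211 CPM in IAA, a TMM change of 0.86 ± 0.13 (edgeR adjusted p = 1.015e-05). By spike-in the groups overlapped, with 3553, 1942 and 1975 normalised counts against 2384, 2578 and 3430, and the change was 0.17 ± 0.31. PRE2 had 261, 252 and 299 CPM in DMSO and 190, 258 and 203 CPM in IAA. Its groups overlapped through IAA replicate 2, it was lower with IAA in 2 of the 3 pairs, and its change under TMM was -0.20 ± 0.09 (edgeR adjusted p = 0.0503) without the block and -0.25 ± 0.09 (adjusted p = 0.031) with it. RPT2, at the upper end, had 373, 340.3 and 422 CPM in DMSO and 679, 678 and 743 CPM in IAA, a TMM change of 1.01 ± 0.08. PUP1 had 285, 276 and 320 CPM against 490.4, 510.1 and 519 CPM, a change of 0.91. PRE10 had 272.5, 280.5 and 314 CPM against 463, 490.2 and 484 CPM, a change of 0.85. PRE3 had 105, 129 and 126 CPM in DMSO and 118, 161 and 138 CPM in IAA, with a TMM change of 0.33 ± 0.08 without the block and 0.29 ± 0.06 with it. The groups of PRE3 overlapped, and in each of the 3 pairs the IAA library was the higher.

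The place of the family within each library was described without a test, and it was highest in STH1-AID with IAA. The median log2 count of the 33 genes lay 2.71 ± 0.17 (SD, n = 3) above that of all genes tested in WT. In STH1-AID it lay 2.56 ± 0.036 above in DMSO and 3.57 ± 0.038 above in IAA. The corresponding values were 2.30 ± 0.029 and 2.59 ± 0.043 in RAP1-AID and 2.26 ± 0.12 and 2.81 ± 0.068 in STH1-AID RAP1-AID. In each strain the lowest IAA library was above the highest DMSO library. The 33 genes took 1.09% of all counts in STH1-AID with DMSO and 1.495% with IAA, 0.970% and 1.37% in RAP1-AID, and 0.997% and 1.27% in STH1-AID RAP1-AID. A share of all counts also moves with the most abundant mRNAs of the library, so it need not follow the median. Under TMM the median log2 fold changes of the family were 0.83, 0.35 and 0.52 in the same order. WT replicate 1, at 2.52, stood below the other WT libraries at 2.81 and 2.80, and double-degron DMSO replicate 2, at 2.12, stood below its group.

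**Figure D5:**
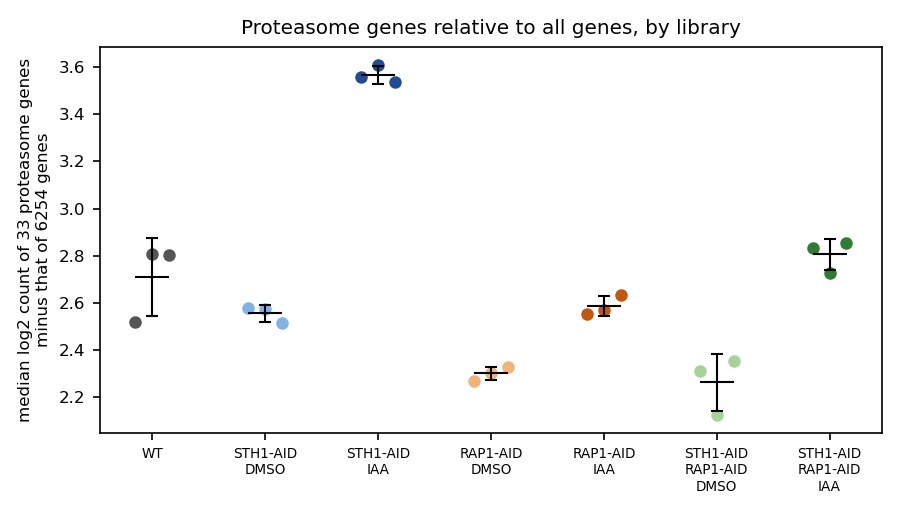
Median log2 count of the 33 genes minus that of the 6254 genes tested, in each library. Points are replicates, bars the mean and error bars the SD; the STH1-AID IAA libraries lie highest at 3.54 to 3.61, and in every strain the IAA libraries lie above the DMSO libraries.

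Whether IAA acted differently on these genes in the 3 strains was tested as a difference of effects, in the same edgeR fit. Between RAP1-AID and STH1-AID 4 of the 33 genes were called, where 38.6% of all genes were. RPN4 was lower in RAP1-AID by 1.44 ± 0.44 on the log2 scale (adjusted p = 0.0045) and PRE2 by 1.18 ± 0.45 (adjusted p = 0.0256). PRE1 and RPT6 were higher in RAP1-AID, by 1.55 (adjusted p = 0.00266) and 1.59 (adjusted p = 0.00227). The same 4 genes were called under TMM, where 32.3% of all genes were. There PRE1 and RPT6 differed by 1.0045 and 1.0318, just past the limit of 1, RPN4 by -1.99 and PRE2 by -1.74. The median difference of all genes was 0.54 by spike-in and -0.02 under TMM. The call of PRE2 was lost, at differences of -1.02 to -1.18 and adjusted p of at most 0.081, without STH1-AID DMSO replicate 1 or 2, STH1-AID IAA replicate 2, RAP1-AID DMSO replicate 3, or RAP1-AID IAA replicate 1 or 2. Between the double strain and STH1-AID no gene was called by spike-in (2.56% of all genes), and under TMM PRE2 at -1.29 and RPN4 at -1.07 were (8.81% of all genes). By spike-in RPN4 gave -0.89 ± 0.44 there (edgeR adjusted p = 0.312). Between the double strain and RAP1-AID, PRE1 was called at -1.495 (edgeR adjusted p = 0.0175) by spike-in (11.3% of all genes) and also under TMM (12.3% of all genes), at -1.14. With the replicate as a block the spike-in value was -1.45 (adjusted p = 0.0628) and the call was lost. It was also lost, at -1.11 to -1.47, without RAP1-AID DMSO replicate 1 or 2, RAP1-AID IAA replicate 3, or replicate 1 of either double-strain group. RPT6 gave -1.21 (adjusted p = 0.0581) in that comparison. The first and second of these differences share the STH1-AID libraries, and all 3 comparisons reuse libraries of the comparisons above.

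The degron strains were also compared with WT before any depletion. These comparisons share the 3 WT libraries with each other and the DMSO libraries with the comparisons of IAA. By spike-in no gene of the family was called in any of STH1-AID, RAP1-AID and the double strain, where 1.39%, 12.8% and 6.92% of all genes were, and 0, 0 and 6 of the 33 genes had an unadjusted p under 0.05, as had 6.48%, 38.4% and 15.1% of all genes. DESeq2 called none either, and without DMSO replicate 1 of the double strain 6 were called there. Relative to other transcripts the family was lower. Under TMM 8 genes fell in STH1-AID (7.34% of all genes), among them PRE1 and PRE2. In RAP1-AID 32 fell (24.6% of all genes), all but the ubiquitin receptor gene RPN13. In the double strain 31 fell (24.5% of all genes), all but RPN13 and RPN4. The TMM medians of the family were -0.16, -0.45 and -0.48. The rise of the family on IAA in RAP1-AID under TMM, with a median of 0.35, was measured from a DMSO level below WT.

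Genes that build, assist or feed the proteasome were taken from lists of assembly chaperones, other subunits and associated factors, the ubiquitin and Cdc48 system, and regulators of RPN4. In STH1-AID 4 of the 9 assembly chaperone genes were called lower by spike-in, where 42.7% of all genes were, and none higher, where 4.69% were. Their median was -0.92, and that of all genes -0.84. HSM3, a chaperone of the base, was lowest at -2.27 ± 0.32 (edgeR adjusted p = 1.79e-11), followed by IRC25, RPN14 and PBA1 at -1.67, -1.56 and -1.44. Of the 6 other subunits and associated factors only HUL5, a ubiquitin ligase, was called, at -1.56. Of 15 genes of the ubiquitin and Cdc48 system, the polyubiquitin gene UBI4 rose by 1.61 ± 0.33 (edgeR adjusted p = 2.98e-06), and DSK2 and DDI1, which encode shuttle factors, and the ligase gene UFD2 fell by 1.87, 1.15 and 1.16. None of YAP1, PDR1, PDR3 and HSF1, which encode activators of RPN4, was called by spike-in. Under TMM all 4 rose at an edgeR adjusted p under 0.05, where 39.9% of all genes did.

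In RAP1-AID 1 gene of these lists was called by spike-in, where 4.09% of all genes were called lower and 0.4% higher. MUB1, whose product works with the ubiquitin ligase Ubr2 in the degradation of Rpn4, fell by 2.11 on the log2 scale (SE 0.31, edgeR adjusted p = 1.98e-09). It also fell by 1.78 under TMM. MUB1 also fell in the double strain, by 1.95 (adjusted p = 1.69e-08), and was still called with the replicate as a block at -1.91 (adjusted p = 0.0178). In the double strain HSM3, IRC25, PBA1, HUL5, DSK2 and DDI1 were called lower without the block, where 32.6% of all genes were. None of them was called with it, at changes of -1.06 to -1.45 and edgeR adjusted p of 0.0639 to 0.184. There 8.23% of all genes were called lower.

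PACE was also present at 45 genes outside the family, of which 44 passed the filter on low counts. At 7 of the 45 the letters are those of a subunit gene as well, since the 2 genes stand head-to-head and share the promoter, as ALG13 does with RPT6. In STH1-AID 5 of the 44 were called higher by spike-in (4.69% of all genes) and 12 lower (42.7% of all genes), with a median of -0.24, against -0.07 for the 27 subunit genes with PACE and -0.84 for all genes. Under TMM 30 rose (39.9% of all genes) and 12 fell (37.5% of all genes). The 44 genes ran from LSB3 at -2.62 to the open reading frame YCL042W at 2.94 on the log2 scale by spike-in. In RAP1-AID 1 of the 44 was called lower by spike-in (4.09% of all genes) and 0 higher (0.4% of all genes). The gene was PIM1, which encodes the mitochondrial Lon protease, at -1.79 ± 0.33 (edgeR adjusted p = 2.20e-06). In the double strain 2 were called higher (3.49% of all genes) and 12 lower (32.6%), and with the replicate as a block 1 (1.7%) and 3 (8.23%).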

How the data were processed

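Polyadenylated RNA of 21 cultures mixed with S. pombe cells was sequenced from stranded libraries. The authors trimmed reads with cutadapt 1.9.1, aligned them to each genome with BWA 0.5.9-r16 and counted them per gene with featureCounts (Subread 1.5.1), by strand, without split alignments. The deposited values are raw counts for 6692 S. cerevisiae and 5145 S. pombe genes. The sequencer model of each library is not given in the sources used here.

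Groups came from the labels. All 21 libraries were fitted together in edgeR 4.0.16 (R 4.3.3; quasi-likelihood test, Benjamini-Hochberg adjustment over 6254 genes kept by filterByExpr), scaled by size factors from the S. pombe counts (median of ratios). TMM, DESeq2 1.42.0, no filter, the compared groups alone, a replicate block, the adjusted p alone and leaving out each library were alternatives. The compared groups alone, the block and left-out libraries under TMM, PACE with 1 mismatch and the Rap1 letters were added after seeing the data. The fit was run on simulated data with known size factors and the same spread for all genes. Error of the spike-in itself was not part of that check. Intervals of 1-based coordinates refer to R64.

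The 33 genes and the lists were chosen with earlier results of these data known. Values per library are given for RPN4, PRE3, PUP1 and PRE2 and for the 3 highest and 3 lowest genes of each IAA comparison, and the others by counts and ranges. RPL11A was named after its values were seen. Deviations of same-numbered IAA and DMSO libraries correlated at 0.486, 0.687 and 0.641 in STH1-AID RAP1-AID, so the numbers were taken as pairs there. They fell under 0.1 for at least 1 pair in STH1-AID (0.082, 0.193 and 0.171) and RAP1-AID (0.131, 0.095 and 0.131).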

Additional observations from a re-analysis of the deposited data

Results flagged for a closer look

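The response to IAA differed between strains for 4 of the 33 genes, by the test of the difference of effects in edgeR. All 4 were called between RAP1-AID and STH1-AID, where 38.6% of all genes were. Between RAP1-AID and STH1-AID, the effect on RPN4 was lower in RAP1-AID, with a difference of -1.44 on the log2 scale (adjusted p = 0.0045), and that on PRE2 was lower as well, at -1.18 (adjusted p = 0.0256). The effects on PRE1 and RPT6 were higher in RAP1-AID, at 1.55 (adjusted p = 0.00266) and 1.59 (adjusted p = 0.00227). The median difference of all genes was 0.54 by spike-in. Under TMM PRE1 and RPT6 were just past the limit of 1, at 1.0045 and 1.0318. The call of PRE2 was lost in 6 fits that each left out 1 library. Between the double strain and RAP1-AID, where 11.3% of all genes were called, the effect on PRE1 differed by -1.495 (edgeR adjusted p = 0.0175). With the replicate as a block this difference was no longer called.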

How the results depend on the processing

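Scaling moved the counts of called genes. Under TMM, 8 genes instead of 1 were called higher in STH1-AID, where 15.4% instead of 4.69% of all genes were. There 0 instead of 3 were called lower, against 964 instead of 2671 of all 6254 genes. In the double strain 1 instead of 0 was called higher, against 8.65% instead of 3.49% of all genes. There 0 instead of 2 were called lower, against 411 instead of 2039 of all 6254 genes. Between the double strain and STH1-AID 2 instead of 0 were called, against 8.81% instead of 2.56% of all genes. At an adjusted p under 0.05 alone, the lower genes numbered 5 for STH1-AID, 1 for RAP1-AID and 7 for the double strain, against 55.4%, 4.38% and 47.9% of all genes. Between the double strain and RAP1-AID, DESeq2 and the compared groups alone each called 2 genes instead of 1. The share of all genes called there was 11.3% with edgeR on all 21 libraries and was not counted for these alternatives. Without the filter on low counts the median of the family minus that of all genes in STH1-AID was 0.74 instead of 0.79.

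With the replicate block, 0 genes were called lower in the double strain, where 8.23% of all genes were, and 0 between it and RAP1-AID. The share of all genes was not counted for the latter. The block was fitted on the compared groups alone. Under TMM at an adjusted p under 0.05, 7 instead of 3 genes were lower in the double strain with the block, against 41.3% instead of 36.4% of all genes. In the compared groups alone without the block 3 were lower, against 33% of all genes. In RAP1-AID 2 instead of 1 were lower both with the block (PRE2, and RPN4 at -0.12, edgeR adjusted p = 0.00215) and in the compared groups alone without it. The share of all genes was not counted in these fits of RAP1-AID. Every IAA library of RAP1-AID correlated best with the DMSO library of its own number, as in the other strains.

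Leaving out each library in turn gave 0 to 1 genes called higher in STH1-AID, a median difference there of 0.736 to 0.818, 1 to 5 genes lower in the double strain (1 without DMSO replicate 1, 5 without DMSO replicate 3 and 4 without IAA replicate 2), 0 to 6 in the double strain against WT (6 without its DMSO replicate 1), 0 to 3 between the double strain and RAP1-AID, and 3 to 7 lower under TMM in the double strain (7 without DMSO replicate 2 or IAA replicate 3). RPT6 in the double strain was at -0.80 without DMSO replicate 1. The share of all genes was not counted in the fits that left out a library. No result changed direction past its threshold. The cause of these shifts was not tested.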
